A study of Mus musculus with 14 samples.

Results

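The 10 genes described here encode neuronal regulators of alternative splicing: the Rbfox family (Rbfox1, Rbfox2 and Rbfox3), the Nova family (Nova1 and Nova2), the polypyrimidine tract binding proteins (Ptbp1 and Ptbp2), the muscleblind family (Mbnl1 and Mbnl2) and Srrm4. Their rows were taken by gene symbol, and every deposited transcript row that GENCODE assigns to these symbols was used, singly and summed per gene. This gave 10 of 51626 gene symbols and 83 of 127975 matched transcripts. Mbnl1 has 25 of the transcripts, Ptbp1 16, Ptbp2 13, Rbfox3 10, Nova1 5, Srrm4 5, Rbfox2 4, Rbfox1 2, Mbnl2 2 and Nova2 1. GENCODE vM21 annotates 8 transcripts for Rbfox1, 15 for Rbfox2, 10 for Mbnl2 and 2 for Nova2. Isoform and exon shares of these genes therefore cover only the deposited part of their annotated transcripts. All 10 genes passed the filter on low values in every comparison.

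The series concerns AUTS2, a nuclear protein linked to neurodevelopmental disorders, and has an RNA-seq experiment and a pull-down experiment on mouse cortex at postnatal day 0.5. In the first, polyA RNA of rostral (frontal) cortex was sequenced from 4 wild-type C57BL6/J animals (WT) and 4 C57BL6/J conditional knockouts (cKO), in which Emx1-cre acts on an Auts2 allele floxed on both chromosomes at exon 15. Emx1 drives Cre in the progenitors of cortical excitatory neurons, so interneurons, microglia and vessels of the cKO keep the gene. No library of a floxed animal lacking Cre, or of a Cre carrier lacking the floxed allele, was analysed here. In the second experiment, total RNA from C57BL6/J cortex, with 2 neonates pooled per replicate, was divided into an immunoprecipitate with an antibody to the AUTS2 C terminus (RIP), an IgG precipitate and a 10% input. Both replicates, A and B, formed matched trios. All values are FPKM, that is fragments corrected for the length of the transcript and the size of the library, so levels can be set beside each other between genes within a table. Depth and counting error are unknown, because the tables hold no counts. Levels in different tables were scaled separately and are given side by side without a test.

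The targeted gene was lower in every cKO library: Auts2 stood at 87.7, 92.2, 55.9 and 60.2 FPKM in WT 1 to 4 and at 29.8, 35.2, 30.4 and 34.5 FPKM in cKO 1 to 4 (limma adjusted p = 0.0237). All 7 excitatory neuron markers were above 0 in each table, and the summed muscle and heart markers, tissues in which Mbnl and Rbfox genes are also high, were at most 0.1495 FPKM in frontal cortex and 1.23 to 8.96 FPKM in the pull-down. Correlated across genes, cKO 1 stood apart from the other frontal cortex libraries (r = 0.980 to 0.986), and WT 1 and WT 2 correlated with each other at 0.993 but with the rest at 0.980 to 0.987. In the pull-down, the RIP libraries correlated at 0.972, the IgG libraries at 0.921 and the input libraries at 0.920. In bulk tissue, fewer cells of a type and less RNA per cell cannot be told apart.

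A pre-mRNA is spliced differently in neurons and in other cells largely because RNA-binding proteins of these families mark exons for inclusion or skipping. Ptbp1 is the repressor of neuronal exons in progenitors and non-neuronal cells, and Ptbp2 replaces it in maturing neurons. Rbfox, Nova and Mbnl proteins bind short motifs and promote or block an exon depending on whether they bind after or before it, while Srrm4 promotes the inclusion of neuronal microexons. Several of these genes also splice their own and each other's transcripts: PTBP1 causes skipping of a short exon in Ptbp2 RNA, and of the corresponding exon in its own RNA, which shifts the reading frame and exposes the RNA to nonsense-mediated decay, and NOVA1 acts on an exon of its own RNA.

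From the 22 short internal exons that some transcripts of a member hold and others lack, 8 are listed here with the mature RNA around them, in capitals for the exon and in lower case for the 12 bases on either side in the spliced transcript. All are from GENCODE vM21 transcripts on GRCm38 and are written 5′ to 3′ on the gene's strand. The pairs from related genes are shown because their paralogous exons can be compared base by base.
Ptbp1 34-base exon, chr10:79862014-79862047, plus strand: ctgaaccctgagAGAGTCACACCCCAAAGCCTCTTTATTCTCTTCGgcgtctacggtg
Ptbp2 34-base exon, chr3:119724612-119724645, minus strand: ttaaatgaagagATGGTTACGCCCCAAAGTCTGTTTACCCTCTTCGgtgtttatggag
Rbfox2 40-base exon, chr15:77094451-77094490, minus strand: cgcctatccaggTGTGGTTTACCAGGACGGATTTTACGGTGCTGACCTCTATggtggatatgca
Rbfox3 40-base exon, chr11:118496351-118496390, minus strand: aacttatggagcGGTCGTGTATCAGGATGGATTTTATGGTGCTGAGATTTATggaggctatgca
Mbnl1 36-base exon, chr3:60621423-60621458, plus strand: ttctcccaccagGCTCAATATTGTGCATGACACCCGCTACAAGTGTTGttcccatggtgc
Mbnl2 36-base exon, chr14:120403336-120403371, plus strand: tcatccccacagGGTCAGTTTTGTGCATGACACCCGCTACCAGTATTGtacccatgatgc
Nova1 72-base exon, chr12:46713498-46713569, minus strand: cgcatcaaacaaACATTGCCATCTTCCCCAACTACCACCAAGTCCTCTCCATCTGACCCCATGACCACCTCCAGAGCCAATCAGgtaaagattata
Srrm4 16-base exon, chr5:116454673-116454688, minus strand: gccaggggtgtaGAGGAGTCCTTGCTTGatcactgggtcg

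The Ptbp1 and Ptbp2 34-base exons are identical at 26 of 34 bases, the Mbnl1 and Mbnl2 36-base exons at 31 of 36 and the Rbfox2 and Rbfox3 40-base exons at 31 of 40. Removing the 34-base exon from Ptbp1-216 shortened its open reading frame from 555 to 379 codons, with the new stop 24 bases after the exon junction and 361 bases before the last junction. For Ptbp2-201 the frame went from 532 to 356 codons, with the stop at the same 24 and 361 bases. The Nova1 exon keeps the frame (507 codons with it, 483 without), as does the Mbnl2 exon (385 and 373). Inserting the Srrm4 16-base exon into Srrm4-201 cut the frame from 608 to 268 codons.

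The first question was whether loss of Auts2 in the excitatory lineage altered the level of these regulators. None of the 10 passed the test between cKO and WT, and the WT and cKO ranges overlapped for each. The limma test made 0 calls at an adjusted p of 0.05 among the members, 0 of them had an unadjusted p under 0.05, and 0.0235% of the 12786 genes tested were called (0.00782% higher and 0.0156% lower). Of all genes tested, 4.41% had ranges that did not overlap, 2.65% with cKO higher and 1.76% with cKO lower. The median log2 difference was -0.05 over the members and 0.00 over all genes tested. The replicate spread therefore sets the limit: the 95% confidence intervals below show which changes the 8 libraries could still hold.

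Among the Rbfox genes, Rbfox1 stood at 92.8, 95.6, 83.4 and 86.5 FPKM in WT 1 to 4 and at 73.3, 96.3, 105 and 99.5 in cKO 1 to 4. cKO 1 was the lowest of the 8 and cKO 3 the highest. The log2 difference was 0.05 (95% interval -0.17 to 0.27, limma adjusted p = 0.875). Rbfox2, which is expressed in many tissues, stood at 118.2, 121, 127 and 130 FPKM in WT and at 115, 135, 133 and 136 in cKO, and its log2 difference was 0.07 (-0.08 to 0.21, limma adjusted p = 0.754). Rbfox3 encodes NeuN, the antigen used to label mature neurons. Its level was 42.2, 51.1, 41.5 and 39.6 FPKM in WT and 29.97, 40.8, 40.03 and 42.9 in cKO, with WT 2 highest and cKO 1 lowest, and the log2 difference was -0.18 (-0.43 to 0.06, limma adjusted p = 0.641).

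Nova1 and Nova2 encode KH-domain proteins, of which NOVA2 is the main form in cortex. Nova1 stood at 8.05, 6.43, 7.82 and 7.95 FPKM in WT and at 8.37, 8.46, 7.81 and 8.76 in cKO. The groups overlapped by cKO 3 alone, and the log2 difference was 0.13 (-0.07 to 0.33, limma adjusted p = 0.673). Nova2 was the more abundant, at 36.03, 36.8, 44.1 and 41.1 FPKM in WT and 26.9, 46.2, 44.7 and 45.2 in cKO. cKO 1 was below all WT libraries and the other cKO libraries above them, which gave a log2 difference of 0.02 (-0.30 to 0.34, limma adjusted p = 0.9749).

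Ptbp2 and Ptbp1, the neuronal and the non-neuronal member of their family, differed in level, with Ptbp2 far above Ptbp1 in each library. Ptbp2 stood at 140.4, 126, 111 and 122 FPKM in WT and at 129, 114, 122 and 109 in cKO, and Ptbp1 at 25.3, 24.6, 22.0 and 21.8 in WT and 23.1, 21.3, 19.7 and 24.8 in cKO. Both sets of libraries were interleaved, and the log2 differences were -0.07 (-0.25 to 0.10, limma adjusted p = 0.761) for Ptbp2 and -0.07 (-0.26 to 0.11, limma adjusted p = 0.782) for Ptbp1. The muscleblind genes were the lowest of the set with Nova1. Mbnl1 stood at 10.6, 9.23, 7.43 and 8.75 FPKM in WT and at 8.86, 8.34, 9.10 and 8.82 in cKO, and its log2 difference was -0.02 (-0.24 to 0.20, limma adjusted p = 0.945). Mbnl2 stood at 5.16, 4.64, 4.69 and 5.09 FPKM in WT and at 4.76, 4.01, 4.41 and 4.41 in cKO. Its ranges overlapped through cKO 1, and the log2 difference was -0.13 (-0.32 to 0.07, limma adjusted p = 0.674).

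Srrm4, the microexon regulator, varied little in WT, at 29.1, 30.7, 29.99 and 29.6 FPKM (SD 0.658). In cKO it stood at 22.0, 30.9, 30.9 and 29.8 FPKM, and the low value was again that of cKO 1. The log2 difference was -0.08 (-0.30 to 0.13, limma adjusted p = 0.787), and without cKO 1 it was 0.03 (limma adjusted p = 0.848). Rbfox1, Rbfox2, Rbfox3 and Nova2 also had their lowest cKO value in cKO 1. Without that library their log2 differences were 0.16, 0.12, -0.07 and 0.20, and none was called. In cKO 1 the summed progenitor markers were 92.2 FPKM, against 69.9 to 71.4 in cKO 2 to 4 and 75.5 to 85.1 in WT. Its summed interneuron markers were 152 FPKM, against 101 to 114 in the other cKO libraries, and its excitatory neuron markers were 739.7 FPKM, against 746.6 to 830.3. All markers of these lists were above 0, and the part of cell composition in the low values of cKO 1 was not tested.

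**Figure D1:**
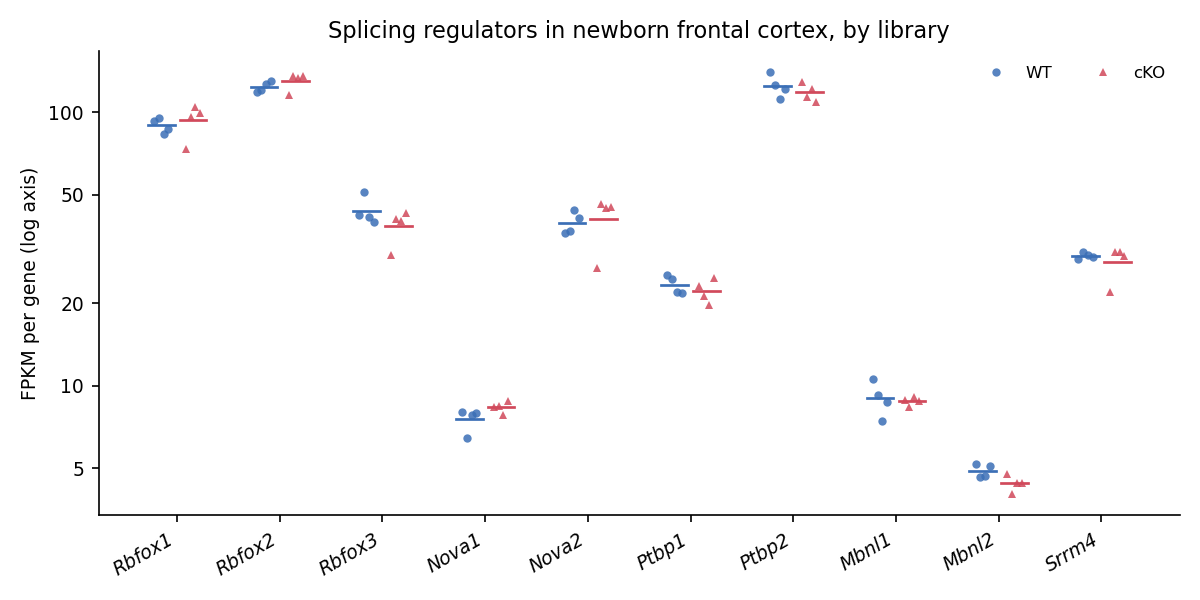
FPKM of each regulator (log axis) in the 4 WT and 4 cKO frontal cortex libraries, with a bar at each group mean. The groups overlap for all 10 genes, and single low cKO points, such as 26.9 FPKM for Nova2 and 22.0 FPKM for Srrm4, belong to cKO 1.

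Levels per length were ordered as follows. In WT, Ptbp2 (124.8 ± 11.998 FPKM, mean ± SD, n = 4) and Rbfox2 (124.0 ± 5.35) led and overlapped, followed by Rbfox1 (89.6 ± 5.63), Rbfox3 (43.6 ± 5.14) and Nova2 (39.5 ± 3.77), with Rbfox3 and Nova2 overlapping. Srrm4 (29.9 ± 0.658) and Ptbp1 (23.4 ± 1.79) came next without overlap. Mbnl1 (9.01 ± 1.32) and Nova1 (7.56 ± 0.760) overlapped, and Mbnl2 (4.89 ± 0.270) was below them. In cKO, Rbfox2 (130.0 ± 9.80) and Ptbp2 (118.3 ± 8.72) overlapped at the top, and Nova2, Rbfox3, Srrm4 and Ptbp1 overlapped their neighbours in that order. In the pull-down Rbfox2 led in every group. In the RIP it was followed by Rbfox3 (mean 65.3 FPKM) and Ptbp2 (41.5), and in IgG and input by Ptbp2 (63.2 and 68.3) and Nova2 (50.3 and 42.7), in each case without overlap. Mbnl2 had the lowest mean in each pull-down group.

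Isoform usage was compared as the share of each gene's FPKM carried by a transcript, which is an estimate by the authors' program and not a count of junction reads. Of 31 transcripts with a mean share of at least 5%, 0 differed between cKO and WT in an exact two-sided permutation test, the smallest adjusted p was 0.886, and 0 had an unadjusted p under 0.05. The design allows a smallest p of 0.0286. Rbfox1-201 carried 74.6 ± 0.383% of Rbfox1 in cKO and 74.0 ± 2.28% in WT (SD, n = 4). Rbfox2 was mostly Rbfox2-203, and Nova1 mostly Nova1-201, at 92.9% on average in cKO and 89.1% in WT. Rbfox3 was spread over Rbfox3-203, Rbfox3-205 and Rbfox3-204. For Rbfox3-204 the transcript level was 7.49, 6.82, 5.53 and 6.98 FPKM in WT and 1.79, 5.47, 1.63 and 4.64 in cKO, so that every cKO value was below every WT value. Nova1-201 separated the other way, at 6.97, 6.06, 6.86 and 6.99 FPKM in WT and at 7.95, 7.44, 7.41 and 8.23 in cKO (log2 difference 0.18, limma adjusted p = 0.828). These were 2 of the 31 member transcripts tested, and 3.55% of all 26722 had ranges that did not overlap (1.82% higher, 1.73% lower). In the limma test Rbfox3-204 had a log2 difference of -0.92 with an adjusted p of 0.828, and 0 of the 31 member transcripts tested were called (0.00374% of all transcripts), with 3 at an unadjusted p under 0.05.

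For Ptbp1, 3 coding isoforms shared the gene: Ptbp1-216 (32.5% in cKO, 30.6% in WT), Ptbp1-202 (22.4% and 20.6%) and Ptbp1-206 (20.6% and 25.6%). Ptbp2-201 carried 54.9% of Ptbp2 in cKO and 50.7% in WT. Transcripts annotated as nonsense-mediated decay targets held 0.670, 4.39, 8.17 and 13.04% of Ptbp1 in WT 1 to 4 and 4.26, 0, 2.14 and 4.54% in cKO 1 to 4. The WT libraries alone spanned more of this scale than the cKO libraries. In Ptbp2 the share of such transcripts was 4.57 to 7.68% in WT and 3.96 to 7.15% in cKO. The retained-intron transcript of Nova1 held 2.85 to 7.33% in WT and 1.86 to 2.54% in cKO, without overlap, at a mean share below the limit for testing. These are small shares of a low gene, which averaged 7.56 FPKM in WT and 8.35 in cKO. How often such shares separate over all genes was not computed. Srrm4-203, a transcript with a retained intron, carried 30.9% of Srrm4 in cKO and 28.6% in WT.

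All 22 short internal exons, including the 8 printed above, were then compared as the share of FPKM in spanning transcripts that hold the exon. Of these, 0 differed between cKO and WT (exact two-sided permutation test, smallest adjusted p = 0.943), and 0 had an unadjusted p under 0.05. The 34-base exon of Ptbp2 was held by 92.1, 89.1, 90.4 and 92.7% in WT and by 90.2, 92.5, 92.5 and 94.3% in cKO. That of Ptbp1 was held by 96.2, 97.6, 88.7 and 82.3% in WT and by 90.2, 92.7, 96.0 and 92.3% in cKO. Most RNA of both genes thus carried the exon in every library, and the groups overlapped. The Rbfox2 40-base exon was held by 66.2 to 72.3% over the 8 libraries, the Rbfox3 40-base exon by 48.6 to 58.5% and the Nova1 72-base exon by 98.05 to 100%. Rbfox3 has no transcript in the table that joins the neighbouring exons directly across its 40-base exon, so for it the remainder are transcripts that differ there in other ways.

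The exons that varied most between WT libraries were muscleblind exons. The Mbnl1 36-base exon was held by 47.0, 54.5, 36.7 and 67.6% in WT and by 49.6, 54.4, 49.4 and 44.3% in cKO, and the Mbnl1 54-base exon by 27.3 to 51.7% over all 8. The Mbnl2 36-base exon was held by 23.3, 86.9, 2.17 and 67.7% in WT and by 54.5, 25.7, 31.6 and 40.4% in cKO, a range in WT that enclosed every cKO value. The Srrm4 16-base exon was held by 3.81 to 5.02% in WT and by 2.39 to 5.66% in cKO.

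**Figure D2:**
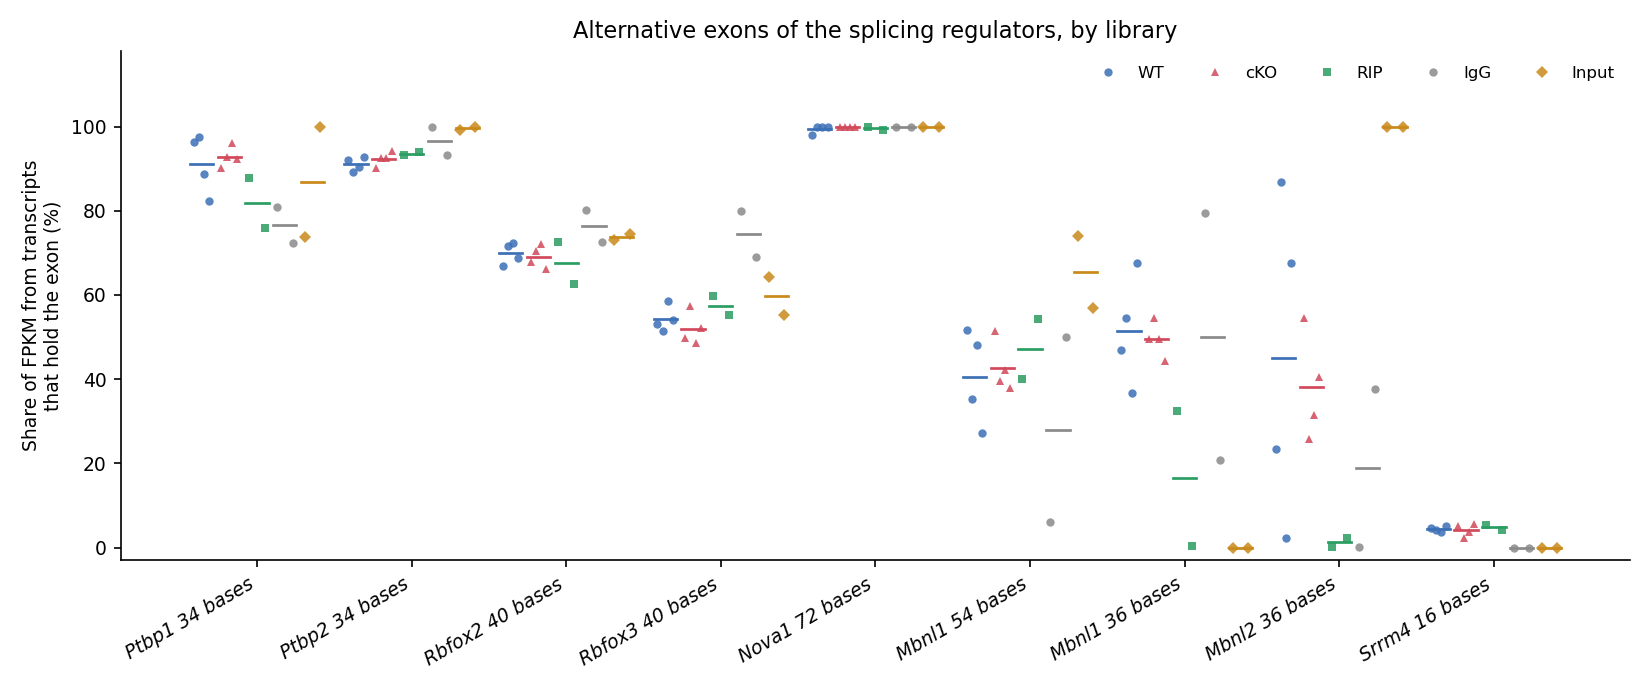
Share (%) of FPKM in spanning transcripts that hold each of 9 alternative exons, one point per library in WT, cKO, RIP, IgG and input, with a bar at each group mean. WT and cKO overlap for every exon, and the muscleblind exons spread most, from 2.17 to 86.9% among WT libraries for Mbnl2.

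The second question was which regulator transcripts were enriched or depleted in the AUTS2 RIP relative to IgG. Rbfox3 RNA was higher in the RIP, Nova1, Nova2, Mbnl1, Ptbp2, Rbfox1 and Rbfox2 RNA were lower, and Ptbp1, Mbnl2 and Srrm4 did not pass the test. The limma test called 1 of 10 members higher and 6 of 10 lower. Over the 14570 genes tested, 13.7% were called higher and 9.69% lower, or 23.4% in all. The RIP and IgG values did not overlap for 9 of 10 members, with RIP higher for 2 and lower for 7, against 64.4% of all genes tested (34.3% higher, 30.2% lower). The median log2 difference was -0.43 over the members and 0.02 over all genes.

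Nova1 showed the widest gap of the set. It stood at 5.05 and 8.48 FPKM in RIP A and B and at 23.9 and 38.8 in IgG A and B, a log2 difference of -2.05 ± 0.30 (SE, limma adjusted p = 0.00727). Each RIP value was below each IgG value by more than the spread within either pair. Nova1 shares 310 of its 8747 annotated exonic bases with Gm33869, a gene on the same strand, which stood at 2.14 and 2.11 FPKM in RIP and at 23.3 and 31.5 in IgG (log2 difference -3.17, limma adjusted p = 0.00248). The part of reads from Gm33869 in the Nova1 value was not tested. Nova2, which has 1 transcript in the table, stood at 28.3 and 28.3 FPKM in RIP and at 51.7 and 48.9 in IgG, and its log2 difference was -0.81 ± 0.11 (SE, limma adjusted p = 0.00643).

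Rbfox3 was the member enriched in the RIP. It stood at 65.1 and 65.6 FPKM in RIP and at 48.6 and 41.7 in IgG (log2 difference 0.53 ± 0.12 SE, limma adjusted p = 0.0268). Its relatives lay on the other side: Rbfox1 stood at 28.2 and 28.0 FPKM in RIP and 45.2 and 36.6 in IgG (-0.52 ± 0.14 SE, limma adjusted p = 0.0447). For Rbfox2 the values were 77.8 and 77.2 FPKM in RIP and 98.2 and 100.01 in IgG (-0.35 ± 0.10 SE, limma adjusted p = 0.0464). With the matched trios as a block Rbfox2 was not called (adjusted p = 0.0586). Within each of these 3 genes the RIP pair differed by less than 1 FPKM, and the IgG pair of Rbfox1 was the most spread.

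Ptbp2 stood at 45.2 and 37.8 FPKM in RIP and at 61.3 and 65.0 in IgG (log2 difference -0.60 ± 0.13 SE, limma adjusted p = 0.0221). Ptbp1 stood at 24.9 and 36.2 in RIP and at 17.8 and 24.9 in IgG, so that RIP A and IgG B were equal to 3 digits (0.49 ± 0.23 SE, limma adjusted p = 0.176). RIP was above IgG within each trio, and with the trios as a block Ptbp1 was called higher (adjusted p = 0.0472). Ptbp1 shares 251 of its 4740 exonic bases with Plppr3 on the opposite strand, which stood at 238 and 208 FPKM in RIP and 133 and 138 in IgG (log2 difference 0.71, limma adjusted p = 0.00779). The sources used here do not say whether the authors' quantification used strand, and the part of Plppr3 reads in the Ptbp1 value was not tested.

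Mbnl1 stood at 8.36 and 10.9 FPKM in RIP and at 24.0 and 17.0 in IgG (log2 difference -1.01 ± 0.22 SE, limma adjusted p = 0.0249). Mbnl2, its paralogue, stood at 7.38 and 5.44 in RIP and at 8.41 and 8.33 in IgG (-0.35 ± 0.22 SE, 95% interval -0.88 to 0.17, limma adjusted p = 0.288). Srrm4 stood at 33.6 and 36.1 in RIP and at 29.3 and 33.0 in IgG (0.16 ± 0.13 SE, 95% interval -0.15 to 0.47, limma adjusted p = 0.415). For Mbnl2 and Srrm4 the pairs did not overlap, but the gap between them was small beside their spread.

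These calls rested on few libraries. Without IgG A, 0 of 10 members and 0 of 14330 genes were called by limma, with 5177 genes at an unadjusted p under 0.05. Without IgG B, Nova2 and Rbfox1 were called, without RIP A Nova1, and without RIP B Nova1 and Nova2. Each of these fits assumes that the lone library of an arm varies like the others. Nova1 and Nova2 were each called in 12 of 14 alternative analyses, and Rbfox3 in 6. With quantile normalization the log2 difference of Rbfox3 was 0.27 (limma adjusted p = 0.177). The RIP libraries also had higher summed progenitor markers (146 and 155 FPKM, against 96.0 and 113 in IgG) and striatal markers (127 and 116, against 93.7 and 67.7). Their microglial markers were lower (8.10 and 9.04, against 17.0 and 12.1). All markers on these lists were above 0. The arms of a trio were divided from the same pooled cortex, so these sums describe the RNA recovered in each arm. The cause of these marker differences was not tested.

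**Figure D3:**
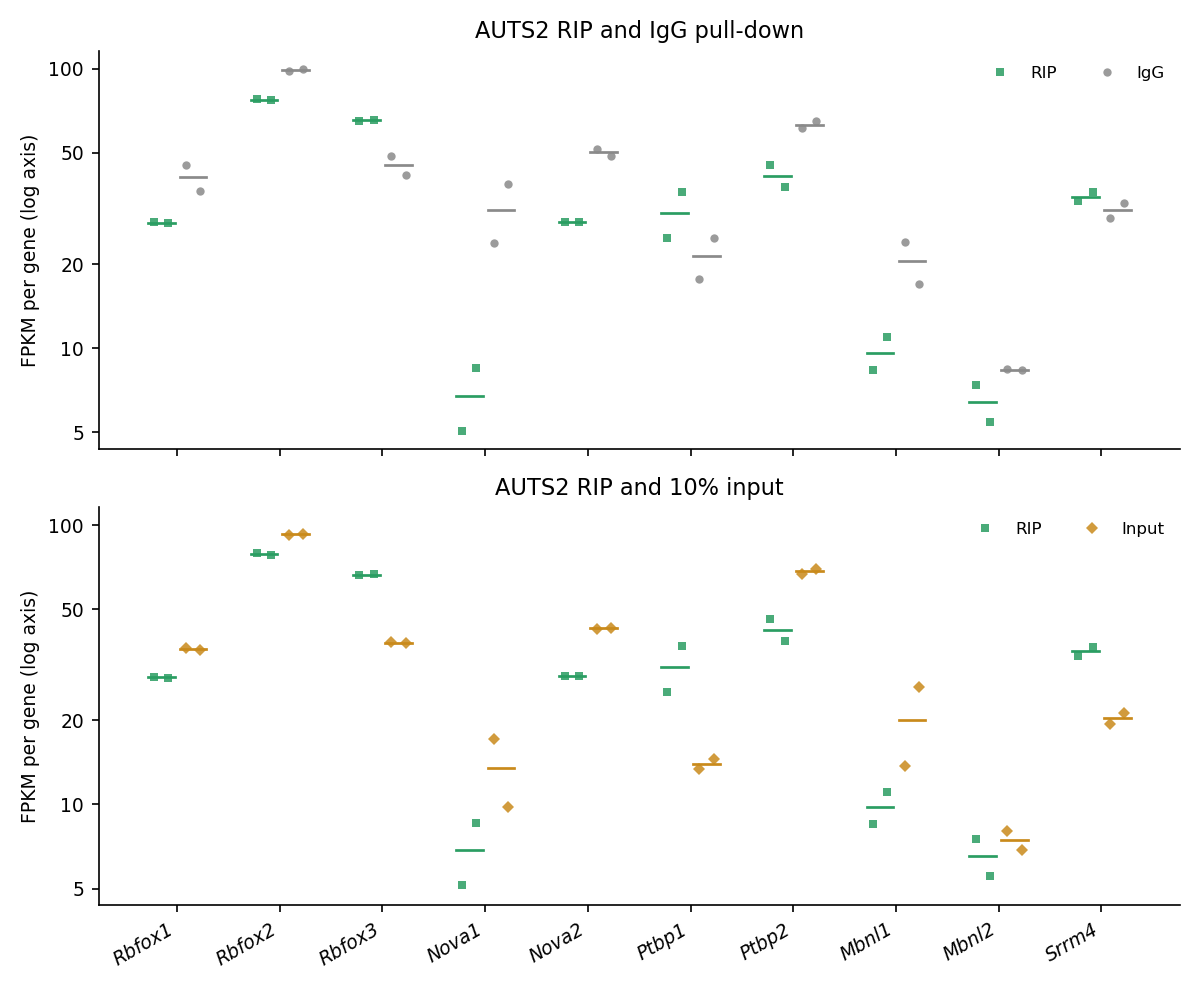
FPKM of each regulator (log axis) in the RIP, IgG and input libraries A and B, with a bar at each group mean. Rbfox3 is higher in the RIP pair (65.1 and 65.6 FPKM) than in IgG and input, and Nova1, Nova2 and Ptbp2 are lower.

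The third comparison set the RIP against the 10% input of the same trios. Rbfox3, Ptbp1 and Srrm4 RNA were higher in the RIP and Nova2 and Ptbp2 RNA were lower. The limma test called 3 of 10 members higher and 2 of 10 lower, while 19.3% of the 14458 genes tested were called higher and 16.6% lower, or 35.9% in all. RIP and input did not overlap for 9 of 10 members, with RIP higher for 3 and lower for 6, and for 71.1% of all genes tested (35.9% higher, 35.2% lower). The median log2 difference was -0.28 over the members and -0.02 over all genes. Both pull-down comparisons use the same RIP libraries, whose values in this table are 1.018 (A) and 1.015 (B) times those given above, so the comparisons are not independent. Summed progenitor markers stood at 149 and 158 FPKM in the RIP and at 96.7 and 107 in input. Striatal markers stood at 129 and 117.8 in RIP against 69.2 and 68.0 in input, and red cell markers at 15.4 and 31.5 against 60.3 and 64.1. Since the arms of a trio share the same pooled cortex, these sums too describe recovered RNA, and the cause of their differences was not tested.

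In the input, Rbfox3 stood at 38.2 and 37.8 FPKM, against 66.2 and 66.6 in the RIP (log2 difference 0.79 ± 0.10 SE, limma adjusted p = 0.00310). It was called in 13 of 14 alternative analyses. Srrm4 stood at 19.5 and 21.3 in input and at 34.2 and 36.7 in RIP (0.77 ± 0.13 SE, limma adjusted p = 0.00701). Ptbp1 stood at 13.5 and 14.6 in input and at 25.3 and 36.8 in RIP (1.07 ± 0.20 SE, limma adjusted p = 0.0106). For each of these 3 genes the lower RIP value exceeded the higher input value. Their IgG values, scaled separately, were also above input: 48.6 and 41.7 FPKM for Rbfox3, 29.3 and 33.0 for Srrm4 and 17.8 and 24.9 for Ptbp1. In the main test against IgG, Srrm4 and Ptbp1 were not called (limma adjusted p = 0.415 and 0.176). Plppr3, which overlaps Ptbp1, stood at 133 and 122 FPKM in input and at 242 and 211 in RIP.

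Ptbp2 stood at 67.0 and 69.7 FPKM in input and at 46.0 and 38.4 in RIP (log2 difference -0.69 ± 0.12 SE, limma adjusted p = 0.00925). Nova2 stood at 42.6 and 42.8 in input and at 28.9 and 28.8 in RIP (-0.55 ± 0.11 SE, limma adjusted p = 0.0128). The pairs of both genes were far apart compared with their spread. Nova1 stood at 17.2 and 9.79 FPKM in input and at 5.14 and 8.61 in RIP (log2 difference -0.87 ± 0.33 SE, limma adjusted p = 0.0926). Its input pair differed more than the nearest RIP and input values did. Gm33869 stood at 3.96 and 3.43 FPKM in input. The input values of both Nova1 and Gm33869 were lower than those in IgG.

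The remaining members did not pass. Mbnl1 stood at 13.7 and 26.3 FPKM in input and at 8.51 and 11.1 in RIP (log2 difference -0.90 ± 0.32 SE, limma adjusted p = 0.0724), and with the trios as a block it was called lower (adjusted p = 0.0167). Rbfox1 stood at 36.4 and 35.6 in input and 28.7 and 28.4 in RIP (-0.32 ± 0.11 SE, limma adjusted p = 0.0712), and Rbfox2 at 92.5 and 93.4 in input and 79.2 and 78.4 in RIP (-0.24 ± 0.09 SE, limma adjusted p = 0.0916). Mbnl2 overlapped, at 8.04 and 6.88 in input and 7.51 and 5.52 in RIP (-0.18 ± 0.22 SE, limma adjusted p = 0.561). With quantile normalization Rbfox1 (-0.49, limma adjusted p = 0.0228) and Rbfox2 (-0.58, limma adjusted p = 0.00723) were called lower, and with coding transcripts only so was Nova1 (-0.76, limma adjusted p = 0.0491). Leaving out 1 library left 1 to 4 members called: Rbfox3 in each case, alone without RIP B, with Ptbp1 and Ptbp2 without RIP A, with Nova2 and Srrm4 without Input B, and with Mbnl1, Nova2 and Srrm4 without Input A.

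**Figure D4:**
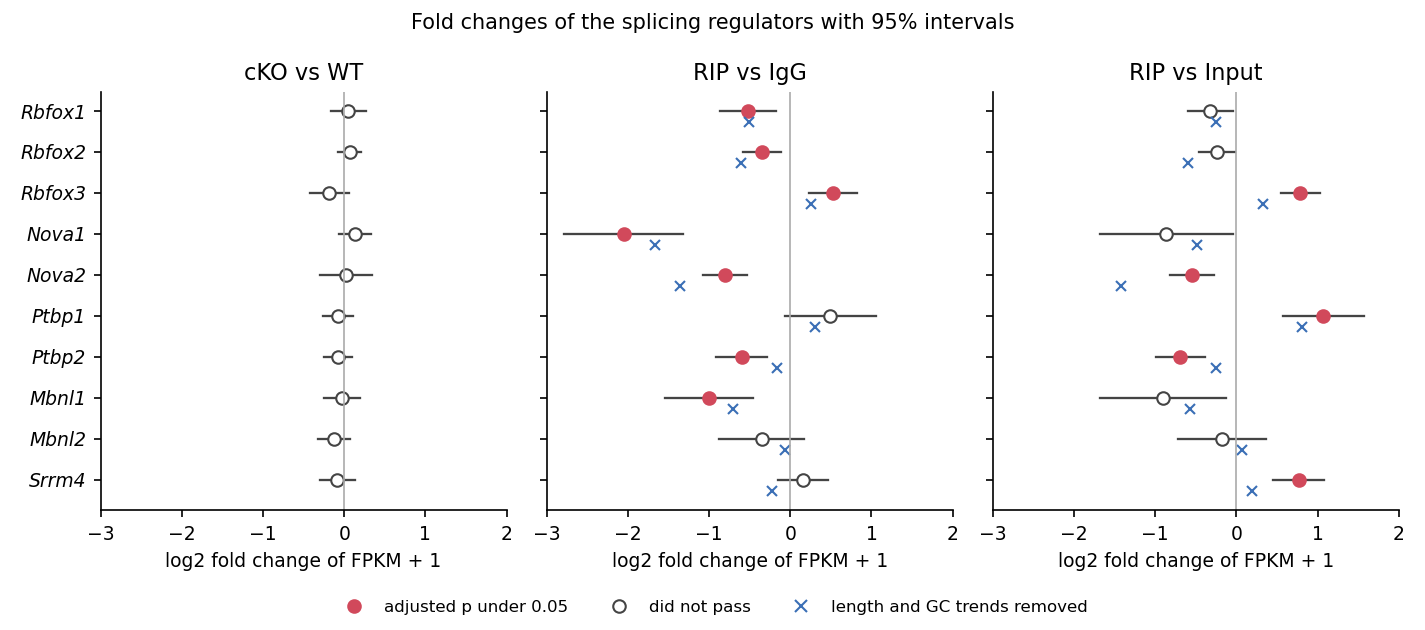
Log2 fold change of each regulator, on the log2(FPKM + 1) scale, in cKO against WT, RIP against IgG and RIP against input, with 95% confidence intervals from limma. All 10 intervals for cKO against WT include 0, while those of Nova1 (-2.05) and Rbfox3 (0.53) against IgG do not.

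The regulators' transcripts differ in length and base composition, and both were set beside the pull-down values. Weighted by FPKM in the IgG table, GC content was 58.9% for Rbfox3, higher than in 92.6% of tested genes, and 38.8% for Nova1, 40.1% for Ptbp2 and 41.9% for Mbnl1, higher than in 3.16%, 5.22% and 10.2%. Of the other members called lower, Nova2 (56.3%), Rbfox2 (50.5%) and Rbfox1 (47.9%) exceeded 82.7%, 53.1% and 38.4% of tested genes in GC. Nova2 is long, at 8372 bases, longer than 98.1% of tested genes. Srrm4, longer than 96.1%, was not called against IgG, nor was Mbnl2, whose GC content (40.3%) was higher than in 5.81%. After the trends with length and GC over all genes were removed, Nova1 (log2 difference -1.66, limma adjusted p = 0.0138), Nova2 (-1.36, limma adjusted p = 0.00339) and Rbfox2 (-0.61, limma adjusted p = 0.0114) were called lower than IgG and 0 members were called higher. Rbfox3 then had a log2 difference of 0.25 (limma adjusted p = 0.208), Ptbp2 of -0.16 (limma adjusted p = 0.444), Mbnl1 of -0.71 (limma adjusted p = 0.0804) and Rbfox1 of -0.51 (limma adjusted p = 0.0585). Against input, Nova2 (-1.42, limma adjusted p = 0.00187) and Rbfox2 (-0.60, limma adjusted p = 0.00665) were lower and Ptbp1 was higher (0.81, limma adjusted p = 0.0345). Rbfox3 (0.33, limma adjusted p = 0.0570), Srrm4 (0.19, limma adjusted p = 0.322) and Ptbp2 (-0.26, limma adjusted p = 0.204) were not called. Whether length or base composition caused the pull-down differences was not tested.

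Single transcripts were less well determined than genes in the pull-down. Against IgG, 0 of 39 member transcripts were called by limma, as were 0 of all 31647 transcripts (0%), with 9 member transcripts and 7158 of all transcripts at an unadjusted p under 0.05. The median log2 difference over all transcripts was 0.13 against IgG and 0.17 against input, so the transcript differences are relative to a shifted centre (0.0072 and -0.0049 after quantile normalization). Rbfox3-205 stood at 21.2 and 22.9 FPKM in RIP and at 8.40 and 8.16 in IgG (log2 difference 1.31, limma adjusted p = 0.0561). Rbfox3-201 also had both RIP values (4.75 and 5.77) above both IgG values (0.919 and 3.73), while Rbfox3-204 stood at 18.9 and 19.6 in RIP and at 24.5 and 4.43 in IgG and overlapped. Nova1-201 stood at 3.51 and 3.02 in RIP and at 16.6 and 20.6 in IgG (log2 difference -2.19, limma adjusted p = 0.0536).

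Against input, 1 of 38 member transcripts was called higher and 2 lower, as were 4.48% and 2.36% of the 31189 transcripts tested, or 6.84% in all. Over all transcripts 1398 were called higher and 735 lower, and 889 and 863 after quantile normalization. The calls were Mbnl2-201 (log2 difference 2.88, limma adjusted p = 0.0376), Mbnl2-202 (-2.97, limma adjusted p = 0.0354) and Ptbp2-201 (-0.92, limma adjusted p = 0.0393). Ptbp2-201, the main coding form of Ptbp2, stood at 40.2 and 37.7 FPKM in input and at 21.3 and 18.9 in RIP. None of the 3 was called when any 1 library was left out or with the trios as a block.

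Mbnl2-202 holds the 36-base exon printed above and Mbnl2-201 lacks it. In input, Mbnl2-202 stood at 8.04 and 6.88 FPKM and Mbnl2-201 at 0.00330 and 4.88e-04. The exon was thus held by 99.96 and 99.99% of the FPKM of these transcripts. In the RIP, Mbnl2-201 stood at 7.50 and 5.38 FPKM in the same table and the exon's share was 0.158 and 2.57%. In IgG the share was 0.137% in A and 37.6% in B. In WT frontal cortex it ran from 2.17 to 86.9%, with Mbnl2-201 at 3.96, 0.608, 4.59 and 1.64 FPKM and Mbnl2-202 at 1.21, 4.03, 0.102 and 3.44 in WT 1 to 4. The summed gene varied little while its division between these transcripts ran from almost all to almost none, also among replicates of 1 group. Whether this division reflects the exon or the program's assignment of fragments was not tested, since the tables hold no junction reads.

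**Figure D5:**
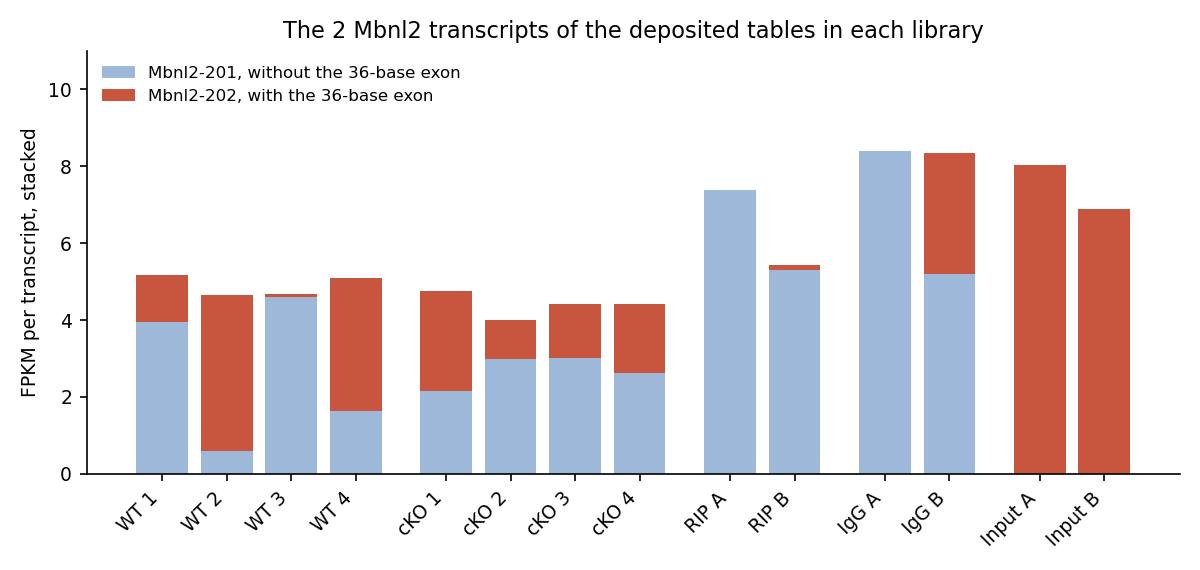
FPKM of Mbnl2-201 (without the 36-base exon) and Mbnl2-202 (with it), stacked for each library. The stacks of the 8 frontal cortex libraries sum to 4.01 to 5.16 FPKM, but the division changes from library to library, and it is nearly complete and opposite in RIP and input.

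The other exon shares in the pull-down are given as values, since 2 libraries against 2 cannot give an exact p below 0.333. The Ptbp2 34-base exon was held by 93.2 and 93.9% in RIP, 100 and 93.3% in IgG and 99.1 and 100% in input. That of Ptbp1 was held by 87.9 and 76.0% in RIP, 80.8 and 72.3% in IgG and 73.8 and 100% in input. The Rbfox2 40-base exon ran from 62.5 to 80.1% over these libraries, and the Rbfox3 40-base exon was 59.7 and 55.2% in RIP, 79.98 and 68.9% in IgG and 64.2 and 55.2% in input. The Srrm4 16-base exon was held by 5.44 and 4.23% in RIP and listed at 0 in IgG and input. The Mbnl1 36-base exon was held by 32.5 and 0.385% in RIP, 79.5 and 20.7% in IgG and listed at 0 in input. Retained-intron transcripts made up 31.4 and 65.5% of Ptbp1 in RIP, 25.3 and 66.1% in IgG and 35.2 and 42.2% in input, so that replicates A and B were far apart in RIP and IgG. For Nova1, the same class made up 9.87 and 29.8% in RIP, 26.1 and 15.6% in IgG and 21.4 and 31.1% in input, against 1.86 to 7.33% in frontal cortex.

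Related splicing regulators, a list of 38 genes that includes the Celf, Khdrbs and hnRNP families, were examined beside the members. In cKO against WT, 0 of 33 tested were called by limma, with 1 at an unadjusted p under 0.05, and the median log2 difference was 0.02. The smallest p was that of Rbm4b, a paralogue of the splicing factor Rbm4, at 18.4, 18.1, 22.7 and 22.5 FPKM in WT and 27.7, 23.5, 23.2 and 22.0 in cKO (log2 difference 0.23, limma adjusted p = 0.628). Celf6, Celf4 and Rbm4 followed, at log2 differences of 0.20, 0.28 and 0.22 (limma adjusted p = 0.641 for each). Against IgG, 8 of 33 were higher and 6 lower (13.7% and 9.69% of all genes), with a median of 0.07. Srrm2, a core SR-related protein of the spliceosome, stood at 555 and 562 FPKM in RIP and at 216 and 246 in IgG (log2 difference 1.27, limma adjusted p = 0.00250), and its partner Srrm1 was higher by 1.25. Celf4, a neuronal Bruno-like protein, fell by 0.84 and Zc3h14, a polyA-binding protein, fell by 0.89 on the log2 scale. Against input, 10 of 34 were higher and 7 lower (19.3% and 16.6% of all genes), with a median of 0.03, and Srrm2 (1.87), Srrm1 (1.82), Srrm3 (1.33), a paralogue of Srrm4, and Zc3h14 (-1.32) had the smallest p.

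Of 20 genes known as splicing targets of these regulators, or in the case of Rest as a repressor linked to Srrm4 by mutual regulation, 0 were called in cKO against WT, with 1 at an unadjusted p under 0.05 and a median log2 difference of 0.01. That gene was Itpr1, a calcium channel of the endoplasmic reticulum, at 37.3, 36.2, 27.5 and 27.4 FPKM in WT and 15.99, 30.5, 27.6 and 23.5 in cKO (log2 difference -0.41, limma adjusted p = 0.628). Against IgG, 8 of 20 were higher and 2 lower (13.7% and 9.69% of all genes), with a median of 0.32. Itpr1 (log2 difference 1.28), Agrn (1.16), which encodes agrin, and the ankyrin gene Ank3 (1.08) were higher. Against input, 13 of 20 were higher and 2 lower (19.3% and 16.6% of all genes), with a median of 0.59, and Agrn (1.80), Itpr1 (1.73), Ank3 (1.15) and Ank2 (0.92) had the smallest p. The level of a target gene is not a measure of its splicing.

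The gene whose level followed each member most closely over the 8 frontal cortex libraries, among 8830 genes averaging 5 FPKM or more, was found by Pearson correlation of log2(FPKM + 1). The pairs were Nova2 with Pacs1 (r = 0.993), Srrm4 with Fry (0.992), Rbfox3 with Tgfbrap1 (0.991), Rbfox2 with Prepl (0.986) and Ptbp2 with Rcbtb1 (0.985). Nova1 was nearest to Kcnt1 (0.980), Rbfox1 to Mapk9 (0.969), Mbnl1 to Pyroxd1 (0.962) and Ptbp1 to C1qbp (0.959). Each is the highest of 8830 correlations over few libraries that share their scaling, and is a description only. Without cKO 1, the r of Srrm4 with Fry was 0.761 over 7 libraries and the others were 0.922 to 0.988. Mbnl2, below 5 FPKM, was not examined.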

How the data were processed

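The deposited values are FPKM per transcript, per the file headers, which name GENCODE vM14 identifiers. Per the submitters' processing notes the tools were Cuffdiff 2.2.1, SAMtools and STAR 2.5, with build GRCm38.p4 (mm10). The sources used here give no filters or strand settings. Scaling differs between the 3 tables, so no test crosses them. GENCODE vM21 holds 127975 of the 128508 transcript identifiers and lacks 533. For Rbfox1, Rbfox2 and Mbnl2 some transcripts have another version there, so their exons rest on vM21. Library cKO 4 was matched by library number, because its label and column give different short names. The depth of the libraries is unknown.

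Transcripts were summed per symbol. Features with a mean of at least 1 FPKM were tested with limma 3.58.1 (R 4.3.3) after a log2(FPKM + 1) transformation (trend and robust settings, two-sided, Benjamini-Hochberg at 0.05 over all features tested). Fold changes on this scale understate changes of low genes. Isoform and exon shares were tested by exact permutation (Python 3.11.15, scipy 1.17.1). The code was tested on simulated data. Replicates are biological per the labels. Replicates A and B are matched trios per the study design; their deviations correlated at 0.00879 (IgG) and 0.0120 (input). Alternatives were other pseudocounts, filters, scalings, a replicate block, length and GC adjustment and coding transcripts only. Further ones were Xist state (above 10 FPKM or not) as a covariate and leaving out each library.

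The members and lists were chosen with earlier results of these data known. Named were all members, their transcripts of at least 5% share, up to 4 genes of each list per comparison with the smallest p, and the gene most correlated with each member. A gene that this rule names is not reported here.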

Additional observations from a re-analysis of the deposited data

Results flagged for a closer look

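In groups of 4 libraries, a value was marked when its gap to the nearest other value exceeded, as a share of the group's range, Dixon's critical value at 95%. For continuous, normally distributed values, chance marks about 1 in 20 groups, and 9 of 66 were marked here. Where the other libraries of a group are tied, as for some exon shares, any differing value is marked by construction. That rate does not apply to such groups. In cKO 1, Rbfox2 stood at 115.4 FPKM, Nova2 at 26.91 FPKM and Srrm4 at 21.98 FPKM, each far below cKO 2 to 4. Nova1 stood at 6.431 FPKM in WT 2, below the other WT libraries.

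The other marked values are exon shares. The Nova1 72-base exon was held by 98.05% in WT 1 and by 100% in the other WT libraries, and the Nova1 65-base exon by 5.881% in cKO 2 and by 0% in the other cKO libraries. The Ptbp1 73-base exon was held by 100% in cKO 2, above the other cKO libraries, and the Ptbp1 30-base exon by 1.917% in cKO 4 alone of the cKO libraries. The Mbnl1 63-base exon was held by 2.934% in WT 4 alone of the WT libraries.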

How the results depend on the processing

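Between cKO and WT, 0 members, 0 member transcripts and 0 isoform or exon shares were called under every alternative run; with 3 libraries against 4 the smallest exact p for a share is 0.0571, so those fits could not call one. Uncalled log2 differences changed sign with libraries left out 1 at a time: Rbfox1 ranged from -0.0085 (without cKO 3) to 0.161, Nova2 from -0.0521 (without cKO 2, and below 0 without cKO 3, cKO 4, WT 1 or WT 2) to 0.200, Mbnl1 from -0.104 to 0.0510 (without WT 1) and Srrm4 from -0.127 to 0.0307 (without cKO 1). Nova2 was -4.45e-04 with quantile normalization and Mbnl1 0.0186 with coding transcripts only. Against IgG, Srrm4 changed sign with quantile normalization (-0.0370) and length and GC adjustment (-0.23). Against input, Mbnl2 ranged from -0.371 to 0.0124 (without RIP B) with 1 library left out and was 0.0696 with length and GC adjustment.

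Members called against IgG numbered 7, with 23.4% of all genes called. They numbered 4 without a filter on low values (8.81% of all genes), 2 without trend and robust settings (12.9%), 3 with length and GC adjustment (18.1%) and 0 to 2 without 1 library (0 to 12.6%). Against input they numbered 5 (35.9%), and 3 with length and GC adjustment (27.96%) and 1 to 4 without 1 library (9.53 to 24.3%). Member transcripts called against IgG numbered 1 with a pseudocount of 5 (0.913% of all transcripts) and 3 with a mean of at least 5 FPKM (16.05%). Against input they numbered 0 with a pseudocount of 0.1 (3.45%), no filter (0%), no trend and robust settings (0%) or the replicate block (0.00962%), and 0 in each fit without 1 library (0%). Without trend and robust settings, 5 related regulators and 6 targets were called against IgG, in place of 14 and 10. The cause of these shifts was not tested.

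With the matched pairs as a replicate block, 7 members were called against IgG (Ptbp1 gained, Rbfox2 lost) and 6 against input (Mbnl1 gained), and 0 between cKO and WT. In frontal cortex, equal numbers do not mark a shared litter, and their deviations correlated at -0.04 to 0.18. Exon shares over transcripts that hold or cleanly skip an exon were added after seeing the data and gave 0 calls. Depth is unknown, so no counting limit can be given.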

Other observations

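Some members had different levels in the polyA libraries of frontal cortex and in the total RNA input of whole cortex. These are given as values, because tissue, RNA selection, library kit and scaling all differ and cannot be told apart. The WT mean of Rbfox1 was 89.6 FPKM, and it stood at 36.4 and 35.6 in input. WT and input means were 124.8 and 68.3 FPKM for Ptbp2, 7.56 and 13.5 for Nova1, and 9.01 and 20.015 for Mbnl1. Rbfox3 stood at 43.6 and 38.0 and Nova2 at 39.5 and 42.7. Srrm4-203, with a retained intron, stood at 7.05 to 11.02 FPKM in WT and stood at 0 and 4.37e-04 in input A and B.

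Members varied together to different degrees over the 8 frontal cortex libraries. Rbfox2 with Nova2 had r = 0.900 and Nova2 with Srrm4 r = 0.881. Rbfox2 with Ptbp2 had r = -0.787. cKO 1 had the lowest cKO value of Rbfox2, Nova2 and Srrm4 and the highest of Ptbp2, and the correlations are a description only.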
